A study of Arabidopsis thaliana with 2 samples.

Results

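The genes described here are the longest protein-coding genes of Arabidopsis thaliana, those whose end lies at least 8 kb beyond their start in the RefSeq gene table of assembly TAIR10.1. There are 287 of them among 27444 protein-coding genes on the 5 nuclear chromosomes. They were chosen by length alone and are set against the 11193 genes of 2 to 4 kb. The data come from digestion of chromatin with micrococcal nuclease (MNase) in seedlings of 2 to 3 weeks, grown in long days. One library was Col-0 wild type and the other was nrpe1, which carries a mutation in the gene for the largest subunit of RNA polymerase V, a plant enzyme of gene silencing. The deposited list pools both and gives no genotype for any nucleosome, so the genotypes were not compared. There were no replicates and the read depth is unknown, so no test over samples can be made. Every value below describes this 1 list, and the spread given is that over the 5 chromosomes, which shows variation along the genome and not between plants.

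A nucleosome wraps DNA around a core of histones, and MNase cuts the linker between nucleosomes, so protected fragments mark their positions. In transcribed plant genes the start and the end of the gene are usually kept open, and nucleosomes follow each other at a regular distance from the first one inside the gene. Regularity is known to fade with distance from such a fixed point, which makes very long genes a place to look at nucleosomes far from any gene end. Many genes of this length encode large proteins of signalling, chromatin, transport and the cytoskeleton.

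The whole list holds 397452 nucleosomes with a median Score of 0.790. The Score is a number the authors gave each nucleosome, reaching 0.991, and no source used here defines it. The 287 very long genes span 3.04 Mb, with a median length of 9.53 kb and a maximum of 27.3 kb. They held 12410 listed nucleosomes, counting each nucleosome by its centre, or 3.12% of the list. A very long gene held a median of 40 nucleosomes, and a gene of 2 to 4 kb a median of 11. Chromosome 1 carries 80 of the very long genes, chromosome 2 carries 42, chromosome 3 carries 62, chromosome 4 carries 38 and chromosome 5 carries 65. Gene-poor windows are windows of 500 kb with under 50% of the chromosome's median number of protein-coding genes. In them lie 12 of the very long genes, or 4.18%. The share was 3.81% of all protein-coding genes and 2.88% of genes of 2 to 4 kb.

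Very long genes were packed with listed nucleosomes about as densely as genes of 2 to 4 kb. Their median density was 3.97 nucleosome centres per kb (quartiles 3.45 and 4.64), and that of genes of 2 to 4 kb was 3.93 (quartiles 3.07 and 4.85). The ratio of the medians was 1.01, and over chromosomes it was 1.02 ± 0.0540 (SD, n = 5), from 0.945 to 1.08. The difference was thus smaller than the spread between chromosomes. Listed intervals covered a median of 50.7% of a very long gene and 50.3% of a gene of 2 to 4 kb. The share of nucleosomes that overlap a listed neighbour was also close, at 62.2% and 62.5%, as was the median interval width, at 138 and 137 bp.

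Median density was nearly level with length. The median was 3.99 per kb in the 165 genes from 8 to 10 kb, 3.94 in the 100 genes from 10 to 15 kb and 3.97 in the 22 genes of 15 kb or more. Across the 287 genes, density and length had a Spearman correlation of -0.0283 and a Pearson correlation of -0.0527, a description over genes of 1 shared list. What did narrow was the scatter. The SD of density between genes was 0.958 per kb in very long genes, 1.11 in genes over 4 and under 8 kb and 1.33 in genes of 2 to 4 kb. A longer gene averages over more nucleosomes, and how much of the narrowing this accounts for was not tested. Of the very long genes, 39 (13.6%) lay below the lower quartile of genes of 2 to 4 kb, where 25.5% of all protein-coding genes lay. Another 53 (18.5%) lay above the upper quartile, against 29.5% of all protein-coding genes.

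**Figure D1:**
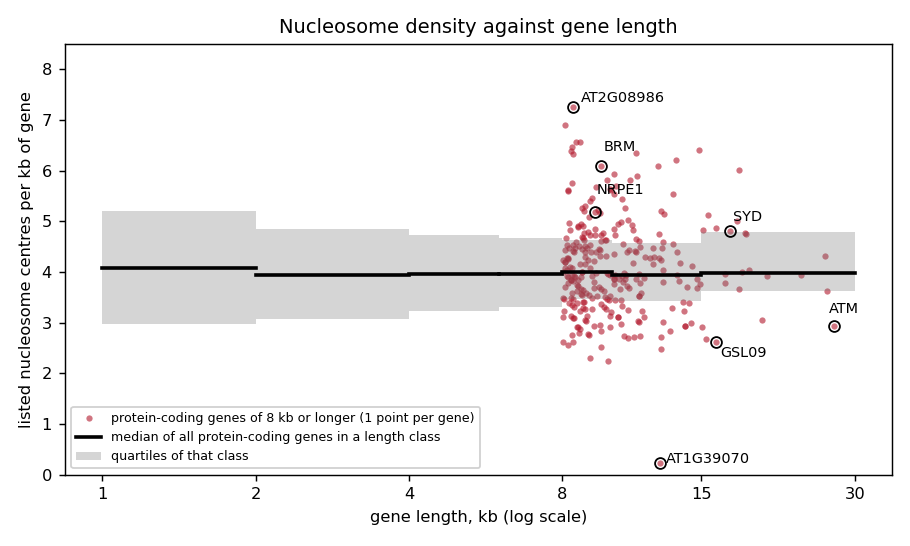
Listed nucleosome centres per kb of gene (y axis) against gene length in kb (x axis, log scale). Each point is 1 of the 287 genes of 8 kb or longer, black lines are medians of all protein-coding genes in a length class and grey boxes their quartiles. The medians stay between 3.93 and 4.08 per kb from 1 kb upwards, and AT1G39070 stands far below all other points at 0.241 per kb.

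The gene mutated in the nrpe1 library is itself one of the very long genes. NRPE1 (AT2G40030, listed in the gene table under the symbol NRPD1B) is 9.26 kb long and held 48 nucleosomes, or 5.18 per kb. They took up 66.4% of its length. Its nucleosomes were spread over the whole gene, with between 3 and 8 in each full kb and none of these windows empty. The first began at 16714649 and the last ended at 16723766 on chromosome 2, by the coordinates of the list. NRPE1 was denser than the median very long gene, with 4.54 and 5.83 per kb on either side of its midpoint.

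BRM and SYD, which encode ATPases of SWI/SNF complexes that slide or evict nucleosomes, are very long genes too. BRM (AT2G46020) held 58 nucleosomes in 9.52 kb, or 6.09 per kb, and covered 72.9% of its length. Its median kb window held 7, the lowest 3 and the highest 8. SYD (AT2G28290) is longer, at 17.1 kb, and held 82 nucleosomes at 4.80 per kb. On either side of its midpoint SYD held 3.28 and 6.33 per kb, the sparse side being the one with the lower coordinates. The first kb of SYD held 1 nucleosome, and the fourteenth held the most, 9. In BRM the values were 6.30 and 5.88 per kb.

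The 10 longest genes mostly lay near the median density. ATM (AT3G48190), the kinase that signals DNA double-strand breaks, is the longest at 27.3 kb. It was also among the sparser ones, with 80 nucleosomes at 2.93 per kb and 38.1% covered. A median kb of ATM held 3 nucleosomes, and 1 of its 27 full kb windows held none. AT1G48090, at 26.5 kb, held 96 at 3.62 per kb. MDN1 (AT1G67120), which encodes the midasin ATPase of ribosome assembly, is 26.2 kb long and held 113 at 4.31 per kb, the largest number in any very long gene named here. AT4G17140 held 93 at 3.95 per kb and SHRUBBY (AT5G24740) held 79 at 3.92 per kb.

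Of the next 5 by length, AT1G58602 was the sparsest, with 60 nucleosomes in 19.7 kb or 3.05 per kb. ILITHYIA (AT1G64790) held 75 at 4.03 per kb and AT2G17930 held 87 at 4.75 per kb. AT4G36080 held 87 at 4.76 per kb. TIL1 (AT1G08260), the catalytic subunit of DNA polymerase epsilon, held 72 at 3.99 per kb. The 2 densest of these 10 were AT4G36080 and AT2G17930.

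**Figure D2:**
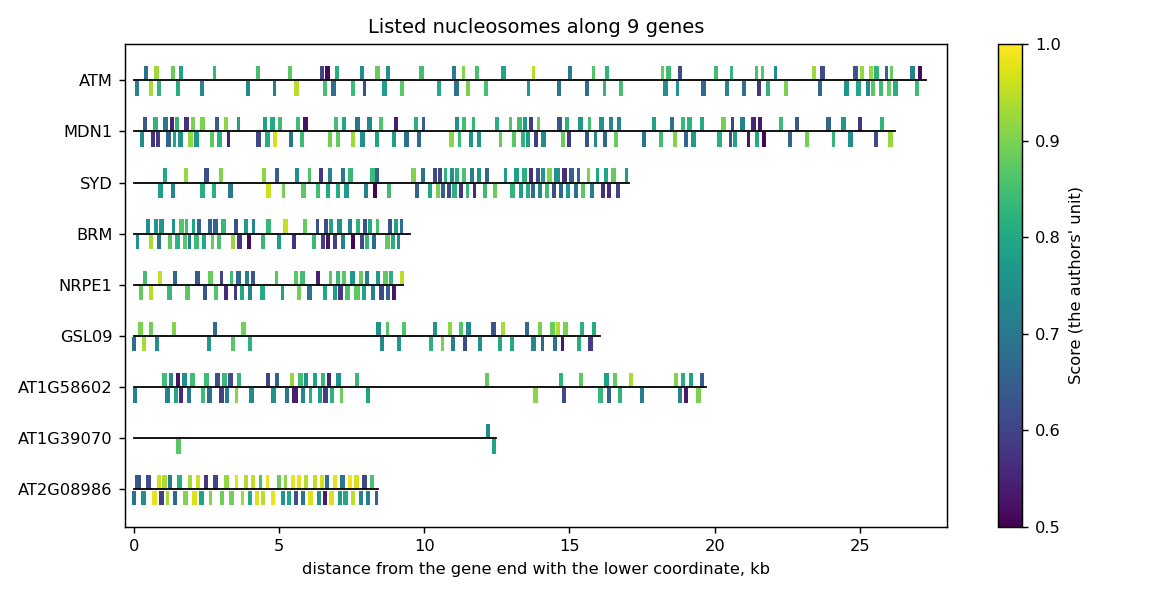
Listed nucleosomes along 9 genes, drawn to scale from the gene end with the lower coordinate (x axis, kb). Each box is 1 nucleosome, alternately above and below the gene line so that overlapping neighbours can be told apart, and its colour is the Score. SYD fills up towards one end, GSL09 and AT1G58602 hold stretches of 4267 and 3952 bp without a nucleosome, AT1G39070 holds 3 nucleosomes, and AT2G08986 is filled from end to end.

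The extremes of density lay far apart. AT1G39070, in a gene-poor window of chromosome 1, held 3 nucleosomes at 0.241 per kb, and 96.1% of its bases lay in stretches over 1 kb without a listed nucleosome. The next lowest were UBP13 (AT3G11910), a deubiquitinating protease, with 22 nucleosomes at 2.24 per kb, and ALA3 (AT1G59820), a phospholipid flippase, with 21 at 2.31 per kb. The myosin gene XI-I (AT4G33200) held 31 at 2.48 per kb and PRP40B (AT3G19670), a splicing factor, held 24 at 2.52 per kb. Apart from AT1G39070, then, the sparsest very long genes still held more than 20 nucleosomes each.

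At the other end AT2G08986, in a gene-poor window of chromosome 2, held 61 nucleosomes at 7.26 per kb and was covered over 93.1% of its length. Each of its 8 full kb windows held 6 to 8. AT4G22410 followed with 56 at 6.91 per kb. CSI1 (AT2G22125), which links cellulose synthase to microtubules, held 56 at 6.57 per kb. The gene emb1507 (AT1G20960) held 57 at 6.57 per kb and AT1G77460 held 54 at 6.47 per kb. The 12 genes in gene-poor windows held both the lowest and the highest of the 287 densities, around a median of 4.18 per kb, against 3.96 per kb in the 275 on chromosome arms.

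Functional groups were read from 12 hand-made lists, which take in 70 of the 287 genes. The lists are incomplete, so each count holds for the listed genes and not for the whole family, and no list was tested. Counts outside the quartiles of genes of 2 to 4 kb are to be read against the 25.5% of all protein-coding genes below the lower and the 29.5% above the upper one.

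The listed chromatin ATPases and their relatives, all 8 of 8 being very long genes, had a median density of 5.01 per kb, against 3.97 over all very long genes. Of these, 4 lay above the upper quartile and 1 below the lower one. BRM was the densest. CHR5 (AT2G13370), a CHD-type remodeller, was the sparsest with 34 nucleosomes at 2.72 per kb. Between them, PIE1 (AT3G12810), the ATPase that installs the histone variant H2A.Z, held 50 at 5.46 per kb. PKL (AT2G25170), a CHD3 remodeller, held 32 at 3.11 per kb. Very long genes of the same SNF2 family outside the list had lower densities than its median. ATRX (AT1G08600) held 35 at 3.52 per kb and RGD3 (AT3G54280) held 53 at 4.27 per kb. PIE1, PKL, ATRX and RGD3 were singled out after their values had been seen.

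Of the listed histone-modifying enzymes 5 of 8 are very long genes, with a median of 4.41 per kb and 1 above the upper quartile. EFS (AT1G77300), a histone H3 methyltransferase, was the lowest with 35 nucleosomes at 3.67 per kb. HAF2 (AT3G19040), an acetyltransferase of the TAF1 family, was the highest with 42 at 4.89 per kb. The RNA polymerase subunits, with 4 of 9 long enough, had a lower median of 3.58 per kb. NRPE1 was the densest of them, and NRPC2 (AT5G45140), the second subunit of RNA polymerase III, the sparsest with 30 nucleosomes at 2.72 per kb. Of the Dicer-like and silencing genes 4 of 8 qualified, with a median of 4.15 per kb. They ran from DCL2 (AT3G03300), which cuts double-stranded RNA, with 32 at 3.84 per kb, to DME (AT5G04560), a DNA demethylase, with 42 at 4.46 per kb.

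The kinases related to PI3-kinase, 3 of 3, ran from ATM to ATR (AT5G40820), the kinase of replication stress, which held 71 nucleosomes at 6.36 per kb. Their median was 3.66 per kb. The DNA polymerases, 4 of 4, kept between TIL1 and REV3 (AT1G67500), the catalytic subunit of polymerase zeta, with 46 nucleosomes at 4.78 per kb, and none left the quartile range. Mediator and elongation genes, 3 of 4, had a median of 4.41 per kb. CCT (AT4G00450), a Mediator subunit, was the highest of these with 52 at 4.98 per kb. GTB1 (AT1G65440), related to the elongation factor SPT6, was the lowest with 33 at 4.08 per kb.

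The listed ubiquitin ligases, 6 of 7, had a median of 5.46 per kb, with 4 of them above the upper quartile. UPL1 (AT1G55860), a HECT-type ligase, held 83 nucleosomes at 6.21 per kb. PRT6 (AT5G02310), a ligase of the N-degron pathway, was the lowest with 37 at 4.08 per kb. A further HECT-type ligase outside the list, UPL6 (AT3G17205), was sparser than all 6, with 24 at 2.79 per kb, which is below the lower quartile. The 4 listed enzymes of central metabolism, 4 of 4, had a median of 5.48 per kb with 3 above the upper quartile. GLT1 (AT5G53460), the NADH-dependent glutamate synthase, held 60 at 5.94 per kb, and GLU1 (AT5G04140), its ferredoxin-dependent counterpart, held 34 at 3.91 per kb.

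Myosins, the motors that carry organelles along actin, were the largest group with 14 of 16 long enough. Their median was 3.58 per kb, with 3 below the lower quartile and 3 above the upper one. XI-I was the lowest and XIC (AT1G08730) the highest, with 46 nucleosomes at 5.09 per kb. The listed callose synthases, 9 of 11, had a median of 4.15 per kb. GSL8 (AT2G36850) held only 41 nucleosomes in 15.3 kb, or 2.68 per kb, and GSL04 (AT3G14570) held 57 at 5.44 per kb. GSL09 (AT5G36870), of the same family but not on the list, was sparser still, with 42 nucleosomes in 16.1 kb or 2.62 per kb. The listed genes of membrane traffic, 6 of 7, had a median of 3.93 per kb. They ran from ATMIN7 (AT3G43300), an activator of ARF GTPases, with 41 at 3.59 per kb to SPI (AT1G03060), a BEACH-domain protein, with 73 at 4.83 per kb. Outside that list the exocyst gene SEC3A held 2.56 per kb and GRV2, of endosomal traffic, 6.10 per kb. UPL6, GSL09, SEC3A and GRV2 were added here with their values known.

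From both ends to the middle, very long genes had a sparse border, a rise just inside and a nearly level interior. The gene table gives no strand, so starts and ends of transcription are mixed. Over 574 gene ends the density fell to 1.51 per kb at 30 bp outside the gene and rose to 5.37 per kb at 450 bp inside, 3.56 times as high. Genes of 2 to 4 kb fell to 1.26 per kb and rose to 4.67 per kb at 350 bp, 3.69 times as high. The SD of this ratio over the 5 chromosomes was 0.899 in very long genes and 0.181 in genes of 2 to 4 kb, so the ratios did not differ beyond their spread. With so few ends the position of the highest point was loose, with an SD of 127 bp over chromosomes against 14.1 bp in genes of 2 to 4 kb. Its height is that of the highest 60 bp mean up to 1000 bp inside, and wider zones lay lower. At 200 to 400 bp and 400 to 600 bp inside, very long genes held 4.39 and 4.37 per kb. Genes of 2 to 4 kb held 4.32 and 4.43 per kb there.

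The first centre inside an end lay at a median of 227 bp in very long genes and 249 bp in genes of 2 to 4 kb. In very long genes 43.9% of ends had a centre within 200 bp, against 38.5%. Ends with no centre within 1000 bp were rare in both, at 2.09% (12 of 574) and 2.58%. At a matched distance of 100 to 1000 bp inside the ends, very long genes held 4.29 nucleosomes per kb and genes of 2 to 4 kb 4.16. The ratio was 1.03, over chromosomes 1.03 ± 0.0447 (SD, n = 5), and it was above 1 on 4 of the 5. The difference was again smaller than the spread between chromosomes.

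Going inward, the density stayed close to its level near the ends. It was 4.48 ± 0.302 per kb (SD over 5 chromosomes) at 600 to 1000 bp from the nearest end and 4.24 ± 0.290 at 1000 to 1500 bp. At 2000 to 3000 bp it was 4.08 ± 0.261, at 3000 to 4000 bp 3.99 ± 0.171 and at 4000 to 6000 bp 4.12 ± 0.170. The 60 genes that reach beyond 6000 bp held 3.89 ± 0.399 per kb there. Each step between neighbouring zones was smaller than the larger SD of the pair. The last step was larger than the SD of 0.170 at 4000 to 6000 bp.

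Taken as a whole, sequence at least 2000 bp from both ends held 4.04 nucleosomes per kb, or 0.943 of the 4.29 per kb at 100 to 1000 bp inside the ends. Over chromosomes this ratio was 0.946 ± 0.0340 (SD, n = 5), below 1 on 4 of the 5 and just above it on the other. Gene by gene it was less even, with the interior sparser than the ends in 157 genes and denser in 130. GSL8 held 5 per kb at its ends and 2.48 per kb in its interior. UPL1 went the other way, with 3.33 per kb at its ends and 7.05 per kb in its interior. In a single gene the end value rests on few nucleosomes. Among the 182 very long genes that overlap no other annotated gene the interior fell to 0.903 of the ends.

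**Figure D3:**
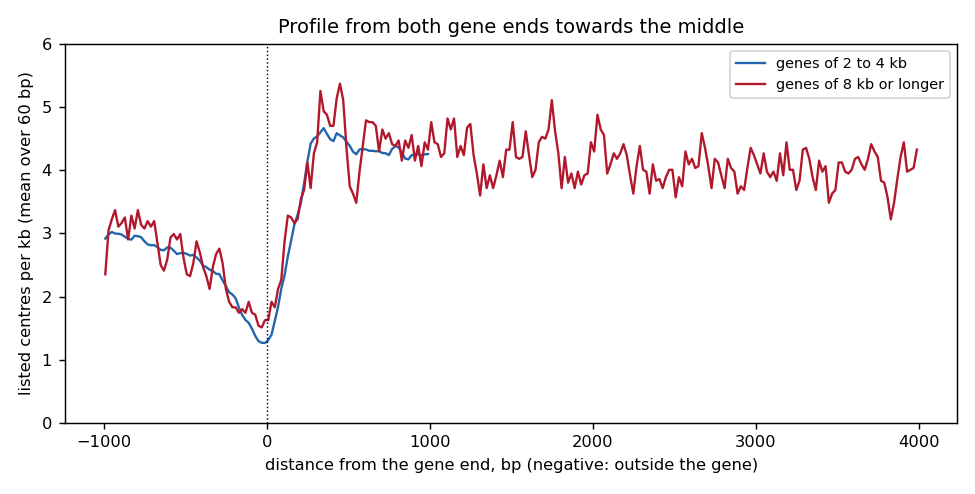
Listed nucleosome centres per kb (y axis, mean over 60 bp) against the distance from the gene end in bp (x axis, negative outside the gene), for 574 ends of genes of 8 kb or longer and 22386 ends of genes of 2 to 4 kb. Both classes dip at the border, to 1.51 and 1.26 per kb, and the very long genes then run nearly level around 4 per kb up to 4000 bp inside.

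Neighbouring nucleosomes in very long genes kept a preferred distance, with a broad peak. Distances between all pairs of centres in the same gene, smoothed over 21 bp, peaked at 194 bp in very long genes and at 186 bp in genes of 2 to 4 kb. The curve of very long genes stayed within 95% of its peak from 182 to 214 bp, and that of genes of 2 to 4 kb from 177 to 199 bp. Single chromosomes gave 190 to 235 bp for very long genes, a mean of 208 ± 16.6 bp (SD, n = 5), against 187 ± 3.27 bp. The 235 bp came from chromosome 4, with 38 very long genes, and lies near the 240 bp bound of the search. The other chromosomes gave 190 to 209 bp. The difference between the classes was 21.4 ± 17.1 bp over chromosomes and -1 bp on the lowest, so it was not resolved. A second peak followed at 357 bp in very long genes and at 353 bp in genes of 2 to 4 kb. The most frequent distance in both was that of overlapping neighbours, at 98 and 96 bp.

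Within very long genes, the preferred distance was shorter near the ends than in the interior. Among centres up to 1000 bp from an end the peak lay at 182 bp, from 236 pairs in the window around it. Among centres at least 2000 bp from both ends it lay at 205 bp, from 856 pairs. The interior peak was farther out on each of the 5 chromosomes, by 16 to 35 bp, and single chromosomes ran from 166 to 183 bp at the ends and from 190 to 207 bp in the interior. Taking only nucleosomes in the upper part of the list by Score, from its median up, the peaks lay at 173 and 203 bp. They lay at 174 and 203 bp when only the higher-scoring of overlapping nucleosomes was kept. With smoothing over 31 bp the peaks lay at 177 and 198 bp, but chromosome 3 then turned, with the interior peak 18 bp nearer in.

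For comparison, ends of genes of 2 to 4 kb gave 185 bp, and the interior of the 2957 genes over 4 and under 8 kb gave 191 bp, from 186 to 194 bp over chromosomes. The median distance from one centre to the next was 141 bp at the ends of very long genes and 174 bp in their interior, overlapping neighbours included. Pairs near an end of a very long gene come from stretches of 1000 bp. In the shorter genes of 2 to 4 kb, pairs across the middle were counted too, so their ends are not limited alike. The part of this limit in the contrast was not tested. The contrast between ends and interior was chosen after the data had been seen.

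**Figure D4:**
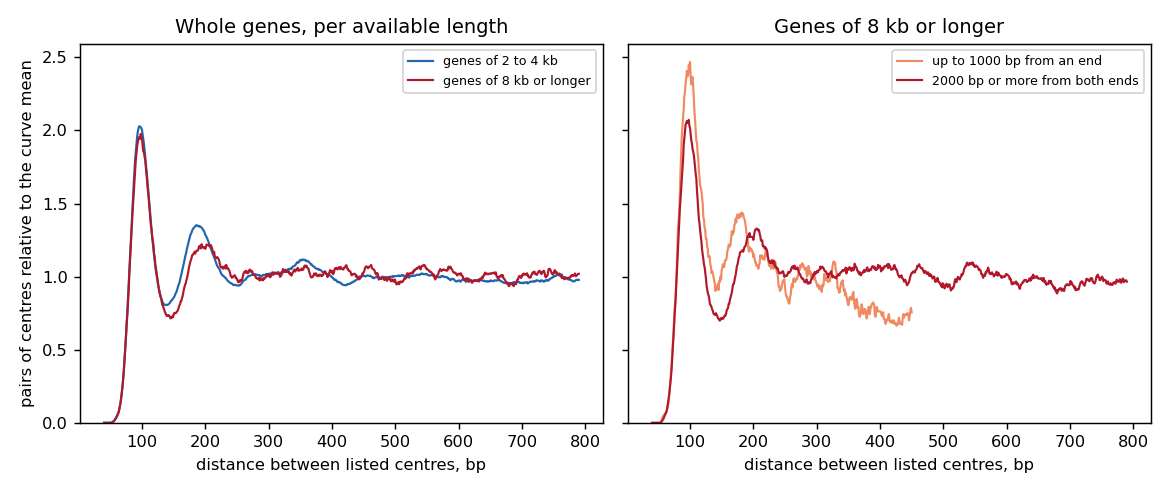
Pairs of listed centres (y axis, relative to the mean of each curve) against the distance between them in bp (x axis), smoothed over 21 bp. The left panel compares genes of 2 to 4 kb and of 8 kb or longer, per length in which such a pair can lie, with first spacing peaks at 186 and 194 bp, and the right panel compares ends and interior of the long genes without that correction, with peaks at 182 and 205 bp. In the right panel the curve for the ends stops at a shorter distance. It is scaled to its mean over that range, so the heights of these curves cannot be compared.

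Stretches of more than 1 kb without a listed nucleosome took up less of very long genes than of genes of 2 to 4 kb. They held 5.88% of the bases of very long genes and 10.1% of those of genes of 2 to 4 kb, a ratio of 0.580. Over chromosomes the ratio was 0.557 ± 0.131 (SD, n = 5), and it was below 1 on all 5, from 0.404 to 0.747. Most such stretches cross a gene end. Of 214 that touch a very long gene 120 did, and of 6313 that touch a gene of 2 to 4 kb 5629 did. Each stretch was counted once for every gene it touches.

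By distance from the ends the 2 classes were closer. In the outermost 100 bp of very long genes 19.2% of bases lay in empty stretches, against 23.6% in genes of 2 to 4 kb. At 600 to 1000 bp inside the values were 7.44% and 6.96%, and at 1500 to 2000 bp 4.65% and 6.68%. Farther in, very long genes held 4.64% at 2000 to 3000 bp and 3.61% at 4000 to 6000 bp. In the 60 genes that reach beyond 6000 bp the share was higher again there, at 6.90%. Long stretches of single genes weigh in this value. One of 3952 bp in AT1G58602 lies 7607 bp or more from both ends. Another of 4267 bp in GSL09 has its middle 6211 bp from an end. The share without these genes was not tested. Genes over 4 and under 8 kb held 6.55% at 2000 to 3000 bp.

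Between nucleosomes of the same gene, 78 very long genes (27.2%) held at least 1 empty stretch, 94 stretches in all. Among all protein-coding genes, with a median length of 2.08 kb, the share was 4.8%. A shorter gene has less room to hold such a stretch, so the shares cannot be set against each other. Per Mb the count was 30.9 in very long genes, 36.2 in genes over 4 and under 8 kb and 22.0 in genes of 2 to 4 kb. Within very long genes there were 32.2 per Mb under 2000 bp from an end and 30.1 per Mb beyond. These counts leave out stretches that cross a gene end, and a stretch held within a gene cannot have its middle close to an end. The values per Mb, by position and by gene length, therefore cannot be set against each other directly. The 94 stretches within very long genes had a median length of 1170 bp, and 8 were over 2000 bp.

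The longest lay in AT1G39070 on chromosome 1, from 14735134 to 14745648, or 10515 bp. A further stretch of 12892 bp crossed the end of the same gene. GSL09, of the callose synthase family, held one of 4267 bp on chromosome 5 from 14522086 to 14526352. Inside it, 4 windows of 1 kb held no nucleosome, whereas the rest of the gene held up to 6 per kb. AT1G58602 held one of 3952 bp on chromosome 1 from 21754490 to 21758441, and 33.2% of its bases lay in such stretches. YAK1 (AT5G35980), a protein kinase, followed with 2443 bp and AT4G30990 with 2426 bp. Without AT1G39070 the share of bases in empty stretches was 5.51%.

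**Figure D5:**
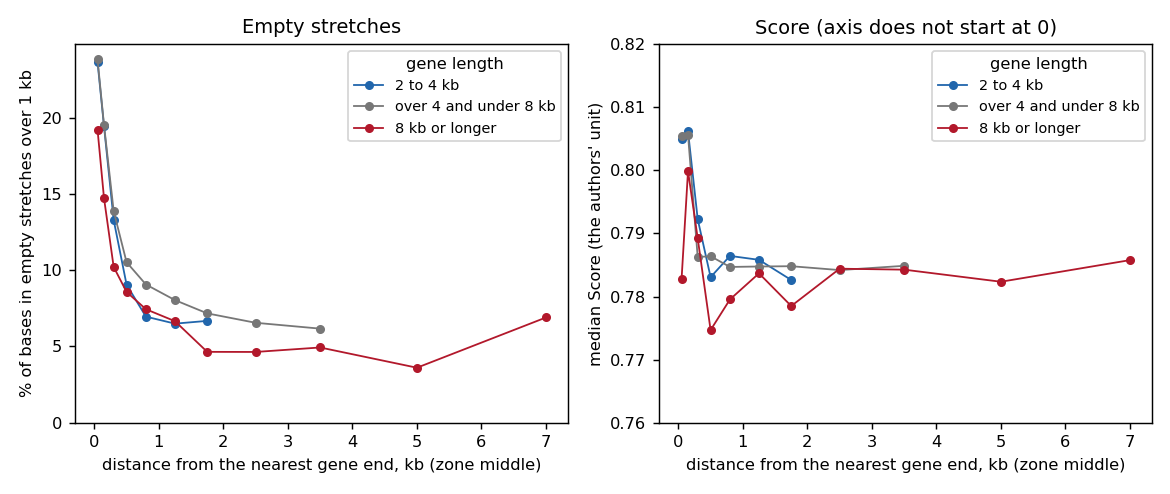
Percent of bases in stretches over 1 kb without a listed nucleosome (left, y axis) and median Score (right, y axis from 0.76 to 0.82) against the distance from the nearest gene end in kb (x axis), for 3 classes of gene length. Each point is a zone, the outermost from 6000 bp inwards. Empty bases fall from 19.2% in the outermost 100 bp of the very long genes to 3.61% at 4000 to 6000 bp and stand at 6.90% in the last zone, while their median Score stays between 0.775 and 0.800.

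The Score differed little. Its median was 0.784 over nucleosomes of very long genes and 0.788 in genes of 2 to 4 kb, a difference of -0.00440, and over chromosomes of -0.00415 ± 0.00394 (SD, n = 5). It was lower in very long genes on 4 of the 5 chromosomes. Interior and ends of very long genes did not differ beyond the spread, with medians of 0.784 and 0.783 and a difference of 0.00305 ± 0.0148 over chromosomes. Nucleosomes centred 100 to 200 bp from an end had the highest median of any zone of very long genes, 0.800, and those at 400 to 600 bp the lowest, 0.775. In genes of 2 to 4 kb the values of these zones were 0.806 and 0.783.

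Between genes, median Scores ran from 0.714 to 0.893. The lowest belonged to AT3G24880 (0.714) and to AT3G24870 (0.718), each with 54 nucleosomes. AT1G72270 (0.727), UPL1 (0.728) and GLU1 (0.731) came next. AT2G08986, the densest gene, also had the highest median Score at 0.893. It was followed by CALS5 (AT2G13680), a callose synthase of pollen walls, at 0.845 with 54 nucleosomes, and AT1G58050 at 0.843 with 39. UBP13 (0.841) and AT3G10180 (0.840) came after them. NRPE1 had a median of 0.802, BRM 0.764 and SYD 0.773. Across the 287 genes, denser genes tended to lower Scores, with a Spearman correlation of -0.277 and a Pearson correlation of -0.234. These describe genes of 1 list in which density and Score come from the same reads. In genes of 2 to 4 kb the Spearman correlation was -0.164.

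Along single very long genes, few stretches of 1 kb were bare. Of 2912 full kb windows 65 (2.23%) held no nucleosome, and the densest held 11. With each gene divided at its midpoint, the denser side held a median of 1.29 times as many nucleosomes as the sparser one (quartiles 1.14 and 1.62), and 18 genes passed 2-fold. By construction this ratio is never below 1, and it was not set against other genes. The part of counting scatter in it was not tested. Between kb windows of a gene, the variance of the counts was a median of 0.675 times their mean. AT5G24350 had the widest split, with 10 and 29 nucleosomes on its sides. GSL09 followed with 11 and 31, AT3G48770 with 28 and 10 and ABCC2 (AT2G34660), a vacuolar transporter, with 12 and 32. SYD stood at 1.93 and BRM at 1.07. Densities of both sides had a Spearman correlation of 0.198 over the 287 genes, and a Pearson correlation of 0.255. The choice to name AT5G24350, AT3G48770 and ABCC2 followed their values.

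The 3 genes named on each side of the length limit had densities in overlapping ranges, but they are too few to compare the sides. Just above it lay AT4G14970 with 34 nucleosomes at 4.24 per kb, AT3G01310 with 25 at 3.12 per kb and AT4G19520 with 32 at 3.99 per kb. Just below it lay ABCC13 (AT2G07680) with 36 at 4.51 per kb, FU (AT1G50240) with 34 at 4.26 per kb and AT3G57570 with 26 at 3.26 per kb. Other genes of the table overlap 105 of the 287 very long genes, or 36.6%. The share was 28.3% of all protein-coding genes and 30.5% of genes of 2 to 4 kb. The median density of the 105 was 4.0 per kb, against 3.95 per kb in the 182 that overlap none.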

How the data were processed

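Per the labels, chromatin of Col-0 and nrpe1 seedlings was cut with MNase, and fragments were picked by size from a 2% agarose gel. The submitters' processing notes name Bowtie and TAIR10. How nucleosomes were called, what the Score means and how the libraries were joined are given in no source used here. The deposited list gives chromosome, start, end and Score per nucleosome, per the file headers. The Score is the authors' own unit and was used for ranks, medians and differences. A total of 0 columns hold values of single libraries.

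Genes came from the RefSeq table of TAIR10.1, matched to the list by chromosome and position. No gene coordinates are printed, and nucleosome positions are as listed. No source used here says whether these count from 0 or 1. Measures were computed with Python 3.11.15, numpy 2.4.6 and pandas 2.3.3, and checked on simulated lists with known spacing, density and Score. An empty stretch has over 1000 bp between the end of a nucleosome and the start of the next. Spacing peaks were sought between 150 and 240 bp.

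The members, gene lists and comparisons were chosen with earlier results of these data known. The gene lists were written from general knowledge, and loci to which the gene table gives no fitting name were then left out. The lists are incomplete. The text names NRPE1, BRM and SYD, the 10 longest genes, the 5 lowest and 5 highest densities, and the extremes of each list. It also names the 5 genes with the longest empty stretches, the 5 lowest and 5 highest median Scores among genes with at least 20 nucleosomes, and 3 genes on each side of the length limit. Any other gene was chosen once its values were known.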

Additional observations from a re-analysis of the deposited data

How the results depend on the processing

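With 1 pooled list the spread between libraries cannot be known, so alternatives were read against 1 SD over the 5 chromosomes. Of the alternative values for the comparisons 66 stayed within it and 6 moved beyond it. With nucleosomes below the median Score left out, so that by construction fewer remain, empty stretches held 26.4% of very long genes and 0.853 times the share in genes of 2 to 4 kb. With stretches from 500 bp the values were 17.1% and 0.734 times, and with stretches from 2000 bp the share was 1.48%. In genes that overlap no other gene the interior over end ratio was 0.903, and the cause was not tested. For named genes 102 alternative densities stayed inside their counting interval and 12 did not. Counts per available length, leaving out AT1G39070 and the alternatives for ends against interior were chosen after seeing the data. No paired analysis was possible because the list has no values per library.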

Other observations

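Several very long genes have a close relative in the same lists. They were picked after their values had been seen, and their differences were not tested. UPL1 held 6.21 nucleosomes per kb with a median Score of 0.728, and UPL2 (AT1G70320), another large HECT ligase, held 5.53 per kb with 0.809. ACC1 (AT1G36160), the cytosolic acetyl-CoA carboxylase needed for long fatty acids, held 63 nucleosomes at 5.81 per kb. ACC2 (AT1G36180), its plastid relative, held 65 at 5.14 per kb and an empty stretch of 2149 bp. The clathrin heavy chain genes CHC1 (AT3G11130) and CHC2 (AT3G08530) held 3.93 and 4.52 per kb. CHC1 had 28 nucleosomes on one side of its midpoint and 11 on the other, the seventh widest split of the 287 genes.

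TIL1 had the highest density at its ends among the 4 DNA polymerases, 7.78 per kb, and 3.56 per kb in its interior. In its shorter relative TIL2 (AT2G27120) the values were 5 and 4.57 per kb. The Mediator gene GCT (AT1G55325) went the other way, with 1.67 per kb at its ends and 5.77 per kb in its interior.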
